A study of Homo sapiens with 6 samples.

Results

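The genes described here are TFF1, TFF2, TFF3, AGR2, MUC1, MUC13, SPDEF and LYZ, products or regulators of mucus-secreting epithelium, in CAOV2 human ovarian cancer cells with and without silencing of TAZ. All 8 were found by symbol among the 17211 genes of the deposited table, and all 8 passed the filter on low values that left 17204 genes for testing. They had been chosen by their values in this same comparison of silenced with control cells, so their differences are given as a description, with no test. The samples were 3 libraries from cells given siRNA against TAZ (siTAZ), set against 3 libraries from cells given a non-targeting siRNA (siNT). Both groups received 100 pmol of siRNA for 2 days and were collected on day 3. A single catalogue reagent against TAZ and another commercial product as its control are named, and CAOV2 is called a cell line in one label and primary cancer cells in another. The titles call the samples biological replicates without saying how they were separated (by culture or by day), so a p-value here covers the spread between these libraries only.

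Trefoil factors are small secreted peptides, folded into cysteine-rich loops, that are released with mucins and help to protect and repair mucosal surfaces. Mucins are large, heavily O-glycosylated proteins that either form the mucous gel or stay anchored in the apical membrane. AGR2 is a protein disulfide isomerase of the endoplasmic reticulum that is needed for mucin production in the mouse gut, SPDEF is an ETS family transcription factor that drives goblet cell maturation in mouse gut and airway, and LYZ is lysozyme, which cleaves bacterial cell walls. TAZ, the product of WWTR1, coactivates transcription: it partners with TEAD factors and is restrained by Hippo signalling.

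Reads counted in genes numbered 28458503 to 34488196 per siTAZ library and 25478595 to 28928432 per siNT library. Levels are deposited values, which are reads divided by 1 size factor per library. WWTR1 had 242, 277 and 279.7 in siTAZ, against 4359, 4217 and 4258 in siNT, so its transcript was lower in every siTAZ library. Its relative YAP1 had 4875 ± 185 in siTAZ and 5992 ± 213 in siNT (SD, n = 3 each, as for every ± below). Of the 17204 genes tested, limma called 55.8% at an adjusted p under 0.05, with 28.3% higher and 27.5% lower in siTAZ. Markers of ovarian and Muellerian epithelium were scarce: the table lists 4 of 10, PAX8, MUC16, MSLN and FOLR1, and their summed value was 44.4 to 56.1 in siTAZ and 35.6 to 66.3 in siNT. FOLR1, the folate receptor, rose to 16.2 ± 1.27 in siTAZ, against 5.90 ± 0.602 in siNT (limma adjusted p = 0.0024), and MSLN had 7.64 ± 3.29 in siTAZ and 2.63 ± 1.38 in siNT (limma adjusted p = 0.043), a call lost in 7 of the 15 alternatives that gave it a value. PAX8 and MUC16 did not pass the test. General epithelial markers moved both ways: of 10, 5 rose, 3 fell and 2 did not pass the test, and their summed value was 96177 to 104672 in siTAZ and 103761 to 112745 in siNT. EPCAM rose 2.72-fold, CDH1 2.27-fold, CLDN7 2.00-fold, KRT19 1.59-fold and KRT8 1.12-fold, while CLDN4 fell 2.73-fold, KRT7 2.66-fold and KRT18 1.23-fold. Of 9 fibroblast markers the table lists 5, of which 2 rose, 1 fell and 2 did not pass the test. Their summed value was 5271 to 6064 in siTAZ and 4592 to 5331 in siNT. Of 7 endothelial markers it lists 1, ESAM, which fell to 1165 ± 109 in siTAZ, against 1774 ± 99.9 in siNT. The part of all these markers in the differences of the 8 genes was not tested. In bulk RNA, a change in the share of cells that express a gene and a change in RNA per cell cannot be told apart.

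In 7 of the 8 genes every siTAZ library was above every siNT library, and in MUC1 every siTAZ library was below every siNT library. Over all genes tested, 31.1% had every siTAZ library above and 30.3% had every siTAZ library below. The log2 fold changes (siTAZ over siNT, computed on log2 of the deposited value plus 1) had a median of 1.44 over the 8 genes and of -0.00 over all genes tested. Since this contrast chose the genes, nothing is read from these counts.

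**Figure D1:**
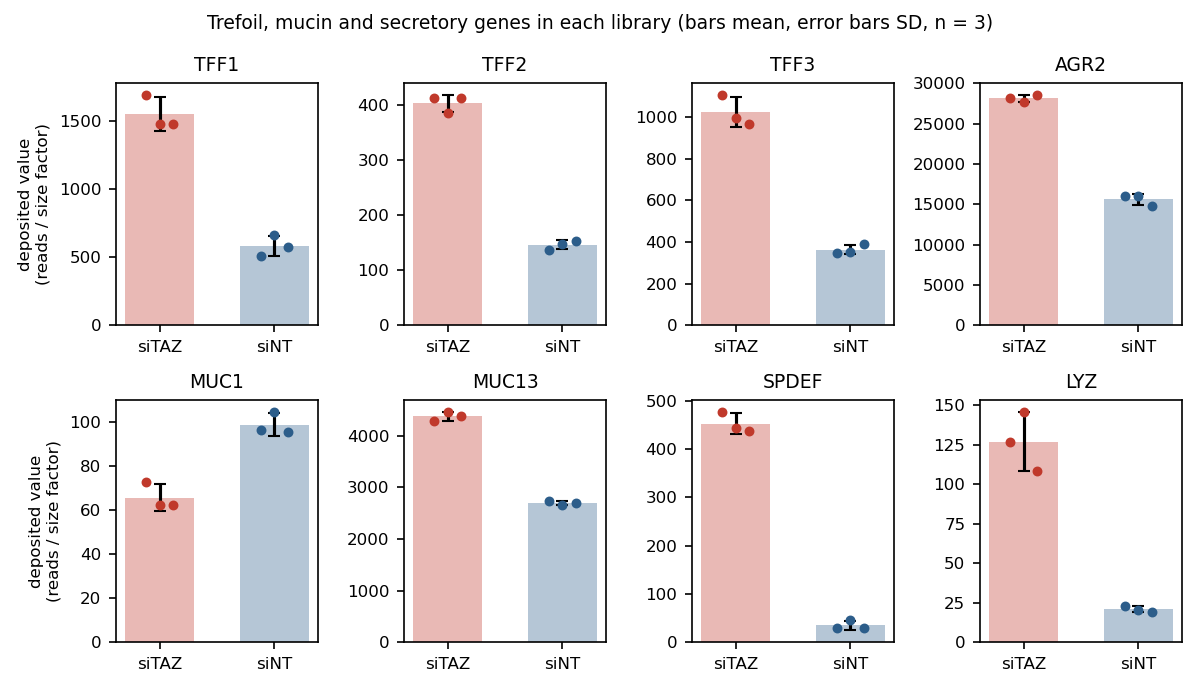
Deposited value (reads divided by the size factor, vertical axis from 0) of each of the 8 genes, siTAZ left of siNT; points are libraries, bars means and error bars SD (n = 3). The groups are apart in every panel, and MUC1 alone is lower in siTAZ, at 65.8 in siTAZ and 98.9 in siNT.

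The 3 trefoil factor genes were higher in siTAZ by similar folds. TFF1 (ENSG00000160182), a peptide of stomach mucus that is also a classic oestrogen-induced transcript of breast cancer cells, had 1693, 1479.5 and 1473 in siTAZ, against 511, 658 and 576 in siNT. The lowest siTAZ library was thus far above the highest siNT library, siNT replicate 2. Its means were 1548 ± 125 in siTAZ and 582 ± 73.9 in siNT, 2.66-fold higher in siTAZ (log2 fold change 1.41, SE 0.08). TFF2 (ENSG00000160181), the trefoil peptide of gastric neck and gland mucus, had 414, 386 and 413 in siTAZ, against 137, 148 and 153 in siNT. Its libraries lay close together within each group, and its mean was 2.77-fold higher in siTAZ (log2 fold change 1.46, SE 0.09). TFF3 (ENSG00000160180), the goblet cell trefoil peptide, had 1108, 997 and 967 in siTAZ, against 347, 353 and 390.3 in siNT. Its groups were as clearly apart, and its mean was 2.82-fold higher in siTAZ (log2 fold change 1.49, SE 0.07).

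Together the trefoil transcripts added up to 2976 ± 206 in siTAZ and 1091 ± 85.7 in siNT. Divided by exon length, TFF1 made up 67.3% ± 0.60 of the trefoil sum in siTAZ and 68.3% ± 2.63 in siNT. TFF3 made up 21.0% ± 0.30 in siTAZ and 20.2% ± 1.92 in siNT, and TFF2 11.7% ± 0.71 in siTAZ and 11.4% ± 0.72 in siNT. The make-up of the trefoil pool thus differed between the groups by less than the spread of the siNT libraries, among which replicate 2 had the largest TFF1 part, 71.4%.

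The 3 trefoil genes lie side by side on chromosome 21, and listed genes at both ends of the cluster also rose. Of the 5 listed genes on each side in RefSeq order, 6 rose, 2 fell and 2 did not pass the test, where 28.3% of all genes tested rose and 27.5% fell. SLC37A1, a glucose-6-phosphate antiporter gene, had 1241, 1129.8 and 1169 in siTAZ, against 423, 404 and 427 in siNT, and it rose 2.82-fold (log2 fold change 1.49, SE 0.06, limma adjusted p = 8.3e-12). ABCG1, a cholesterol exporter and the nearest listed gene on the TFF3 side, had 558, 696 and 612 in siTAZ, against 264, 294 and 224 in siNT, and it rose 2.39-fold (limma adjusted p = 1.8e-08). RSPH1, a radial spoke gene of motile cilia and the nearest listed gene on the TFF1 side, was scarce, at 17.7 ± 2.19 in siTAZ and 3.67 ± 1.55 in siNT, and it also rose (limma adjusted p = 2.1e-04). ABCG1, the trefoil genes, RSPH1 and SLC37A1 thus form a run of listed genes with log2 fold changes between 1.26 and 2.05. The trefoil genes in it were chosen on this contrast, and its ends were set by the size of the change. PDE9A, listed next after SLC37A1, was also called higher, at a log2 fold change of 0.24.

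Beyond that run the changes were smaller or went the other way. PRDM15, a zinc finger gene, and C2CD2 rose 1.66-fold and 1.30-fold, and ZBTB21 did not pass the test, at 775 ± 27.2 in siTAZ and 722 ± 16.2 in siNT, although with total count scaling it did, at an adjusted p of 0.043. PDE9A, a cGMP phosphodiesterase gene, had 443 ± 19.7 in siTAZ and 376 ± 43.8 in siNT (limma adjusted p = 0.028). WDR4, a subunit of a tRNA methyltransferase, fell to 1593 ± 81.8 in siTAZ, against 1928 ± 97.4 in siNT, and NDUFV3, of respiratory complex I, did not pass the test, at 1703 ± 80.6 in siTAZ and 1629 ± 40.2 in siNT. ZNF295-AS1 had 4.50 ± 2.37 in siTAZ and 11.1 ± 1.45 in siNT (limma adjusted p = 0.021), from 15 reads in siTAZ and 30 in siNT. It is antisense by name, but GENCODE release 29 types it as a long intergenic noncoding RNA. No source used here gives the strand setting of the counting, so its count is uncertain. The PDE9A call was lost without siTAZ replicate 1, without siNT replicate 3 and with DESeq2, where its adjusted p was 0.067, 0.18 and 0.052. The ZNF295-AS1 call was lost without siTAZ replicate 1, without siNT replicate 2, without siNT replicate 3 and with DESeq2, where its adjusted p was 0.088, 0.061, 0.065 and 0.097.

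**Figure D2:**
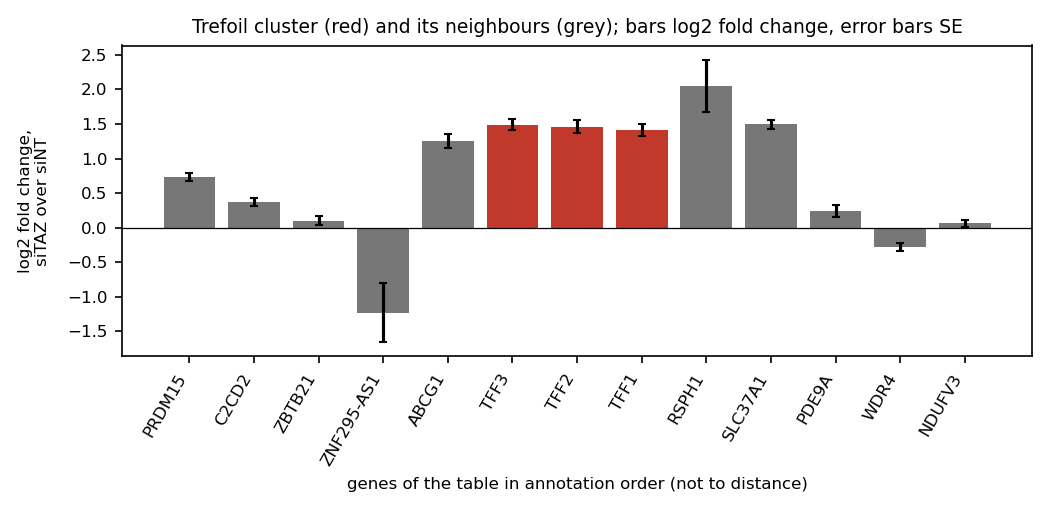
Log2 fold change, siTAZ over siNT, with SE (vertical axis) for the trefoil genes (red) and the 5 listed genes on each side (grey) in RefSeq order, not to distance. The run from ABCG1 to SLC37A1 lies between 1.26 and 2.05, and the outer genes lie between -1.23 and 0.73.

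AGR2 (ENSG00000106541) had the highest level of the 8, also per kilobase of exon. It had 28163, 27643 and 28579 in siTAZ, against 15991, 16023 and 14808 in siNT. Both groups were tight, with SDs of 469 in siTAZ and 692 in siNT, and the mean was 1.80-fold higher in siTAZ (log2 fold change 0.85, SE 0.05). By deposited value it ranked 66 of 17211 genes in siTAZ and 230 in siNT, and it took 0.0957% of all reads in siTAZ and 0.0513% in siNT.

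The other protein disulfide isomerases, listed together with the oxidases ERO1A and ERO1B, mostly moved little. Of 17 tested, 6 rose, 3 fell and 8 missed the threshold, and the median log2 fold change was 0.04. The 52.9% called is near the 55.8% of all genes tested. TMX4, a membrane-bound family member, had 2210.3 ± 114 in siTAZ and 866 ± 57.5 in siNT, and it rose 2.55-fold (limma adjusted p = 1.6e-11). PDIA4 rose 1.21-fold, to 20376 ± 182 in siTAZ, against 16832 ± 27.6 in siNT. TMX2 and TMX3 fell, with log2 fold changes of -0.26 and -0.46.

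MUC13 and MUC1, both membrane mucins, differed in opposite directions. MUC13 (ENSG00000173702), a mucin of the gut surface, had 4293, 4463 and 4381 in siTAZ, against 2729, 2663 and 2692 in siNT. Its pooled SD within groups, 0.02 on the log2 scale, was the smallest of the 8, and its mean was 1.63-fold higher in siTAZ (log2 fold change 0.70, SE 0.05). MUC1 (ENSG00000185499), a mucin of most glandular epithelia whose cytoplasmic tail signals, had 72.7, 62.4 and 62.3 in siTAZ, against 96.3, 105 and 95.5 in siNT. All siTAZ libraries were below all siNT libraries, and the mean was 1.50-fold lower in siTAZ (log2 fold change -0.58, SE 0.14). The level rested on 68 to 73 reads per siTAZ library and 79 to 98 per siNT library. MUC1 carries a long tandem repeat, and no source used here says how reads from repeats were counted.

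Of the 20 other mucin genes on the list, the table lists 8, of which 6 rose, 1 fell and 1 did not pass the test, a share called of 87.5%, against 55.8% of all genes tested. Their median log2 fold change was 1.17. Among the gel-forming mucins, MUC5B of airway and gland mucus had 167, 131 and 115 in siTAZ, against 16.8, 15.0 and 15.7 in siNT, and it rose 8.72-fold (log2 fold change 3.03, SE 0.18, limma adjusted p = 5.0e-10). MUC5AC, the mucin of the stomach surface, had 53.0, 47.7 and 36.7 in siTAZ, against 14.7, 22.4 and 20.5 in siNT, and it rose 2.38-fold (limma adjusted p = 2.8e-04). MUC6, the mucin of gastric glands, had 22.9, 11.0 and 13.6 in siTAZ, against 0, 0 and 4.83 in siNT, from 50 reads in siTAZ and 4 in siNT (limma adjusted p = 4.0e-04). The gel-forming mucins in the table, MUC5B, MUC5AC and MUC6, thus all rose, from low levels.

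Among the other listed mucins, OVGP1, the oviduct-specific glycoprotein, had 61.6 ± 2.07 in siTAZ and 23.5 ± 9.26 in siNT and rose 2.63-fold (limma adjusted p = 1.3e-04). The membrane mucins MUC3A and MUC12, both of the gut surface, went opposite ways. MUC3A rose 2.17-fold, to 131 ± 5.77 in siTAZ, against 60.5 ± 14.2 in siNT, and MUC12 fell 1.46-fold, to 64.2 ± 4.07 in siTAZ, against 93.6 ± 10.2 in siNT (limma adjusted p = 0.0043). MUC3A has a close relative and large repeats, so its count is uncertain. Repeats and close relatives of the other listed mucins were not examined. CD164, a small and widely expressed sialomucin, had 7755 ± 357 in siTAZ and 5852 ± 308 in siNT and rose 1.33-fold. MUC16, which carries the ovarian cancer antigen CA125, was scarce, at 7.98 ± 1.55 in siTAZ and 11.9 ± 3.67 in siNT, and did not pass the test (limma adjusted p = 0.24).

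**Figure D3:**
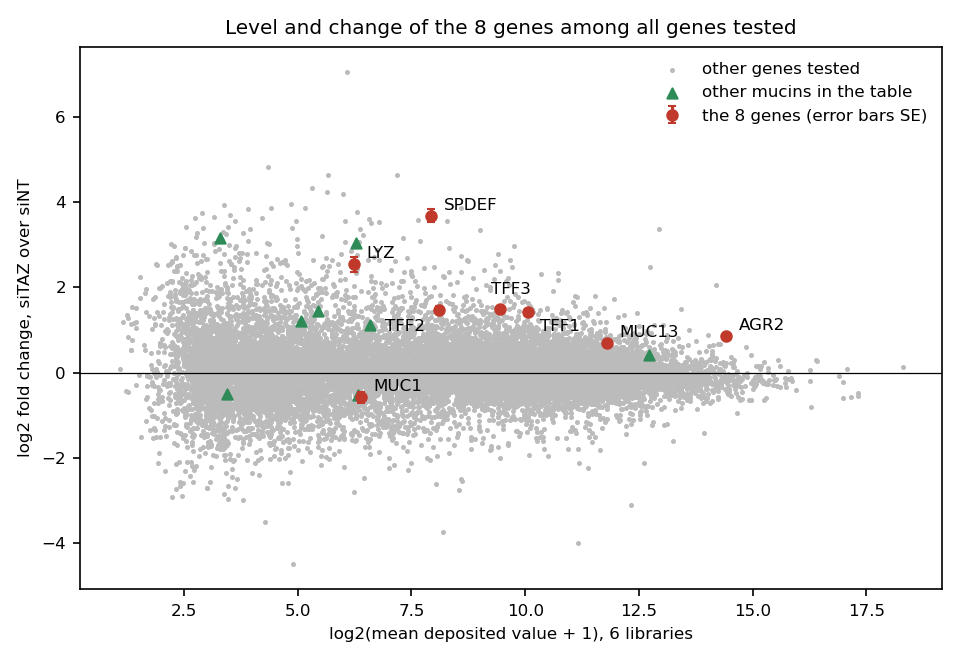
Log2 fold change, siTAZ over siNT (vertical axis), against log2 of the mean deposited value plus 1 over 6 libraries (horizontal axis) for all 17204 genes tested; red points are the 8 genes with SE and green triangles the other 8 listed mucins. SPDEF lies at 3.68, the trefoil genes at 1.41 to 1.49 and MUC1 at -0.58.

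SPDEF (ENSG00000124664) had the largest log2 fold change of the 8. Its values were 477, 444 and 437 in siTAZ, against 29.3, 46.0 and 30.2 in siNT. The groups were far apart, with means of 453 ± 21.4 in siTAZ and 35.2 ± 9.36 in siNT, 12.9-fold higher in siTAZ (log2 fold change 3.68, SE 0.15). The siNT level rested on 28, 43 and 25 reads, and the log2 fold change ranked 18 from the top of the genes tested.

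Other transcription factors of secretory, gut and foregut epithelium mostly rose. Of 24 tested, 18 rose, 1 fell and 5 missed the threshold. The median log2 fold change was 0.48, and 79.2% were called, against 55.8% of all genes tested, of which 28.3% rose. CDX2, an intestinal homeobox factor, had 844 ± 34.1 in siTAZ and 290.0 ± 27.1 in siNT and rose 2.91-fold (limma adjusted p = 6.9e-11). CREB3L1, a membrane-bound factor of secretory cells, rose 2.43-fold, to 2309 ± 19.5 in siTAZ, against 951 ± 101 in siNT. ELF3, an epithelial ETS factor like SPDEF, rose 2.31-fold, to 4025 ± 185 in siTAZ, against 1746 ± 161 in siNT. XBP1, the unfolded protein response factor of secretory cells, rose to 4476 ± 47.5 in siTAZ, against 3067 ± 66.5 in siNT. KLF4, which takes part in goblet cell differentiation in the mouse colon, was the single fall, to 1356 ± 81.0 in siTAZ, against 2085 ± 49.6 in siNT. XBP1 and KLF4 were named after their values were seen.

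LYZ (ENSG00000090382) was scarce in siNT. It had 127, 146 and 108 in siTAZ, against 23.0, 20.3 and 19.3 in siNT. The groups did not overlap, with means of 127 ± 18.8 in siTAZ and 20.9 ± 1.92 in siNT, 6.08-fold higher in siTAZ (log2 fold change 2.54, SE 0.17), from 122 to 159 reads per siTAZ library and 16 to 22 per siNT library. In GENCODE release 29 an antisense gene on the other strand shares 599 of LYZ's 1764 exon bases. Without the strand setting, reads of the pair cannot be told apart over that shared stretch, so the LYZ count is uncertain to that extent.

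LYZ is also a marker of myeloid cells. Of 12 myeloid markers the table lists 4, with a summed value of 179 to 195 in siTAZ and 140.0 to 153 in siNT. CD14 rose 1.85-fold, to 115 ± 1.36 in siTAZ, against 61.9 ± 8.08 in siNT. FCER1G fell to 3.38 ± 0.789 in siTAZ, against 10.7 ± 1.25 in siNT, and CD68 and ITGAM did not pass the test, at 52.4 ± 6.48 in siTAZ and 58.3 ± 6.14 in siNT for CD68 and 18.0 ± 2.90 in siTAZ and 13.7 ± 3.51 in siNT for ITGAM. Their part in the LYZ difference was not tested.

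Of 26 other antimicrobial and mucosal defence genes the table lists 4, of which 3 rose and 1 did not pass the test, where 28.3% of all genes tested rose. ANG, the ribonuclease angiogenin, had 421 ± 28.2 in siTAZ and 136 ± 8.84 in siNT and rose 3.10-fold (limma adjusted p = 3.0e-10). DUOX2, an epithelial oxidase that makes hydrogen peroxide, had 33.2, 22.0 and 17.1 in siTAZ, against 1.05, 8.55 and 1.21 in siNT (limma adjusted p = 2.0e-04). DUOXA2, its maturation factor, had 11.4, 3.67 and 5.12 in siTAZ, against 1.05, 2.14 and 0 in siNT, from 21 reads in siTAZ and 3 in siNT. Its call (limma adjusted p = 0.015) was lost without siTAZ replicate 1, at an adjusted p of 0.093, and without siNT replicate 3, at 0.053. Under a stricter filter (1 CPM or more in 3 libraries) 1 gene of this list was called.

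Other products of goblet and mucous cells mostly rose. Of 28 such genes beyond the trefoil factors and AGR2 the table lists 10, of which 7 rose, 2 fell and 1 missed the threshold. The median log2 fold change was 0.87, and 90% were called, against 55.8% of all genes tested, of which 28.3% rose. REG4, a lectin of intestinal secretory cells, had 132, 157 and 142 in siTAZ, against 13.6, 23.5 and 13.3 in siNT, and it rose 8.54-fold (limma adjusted p = 2.1e-09). BCAS1 had 435 ± 2.97 in siTAZ and 77.0 ± 2.29 in siNT and rose 5.65-fold (limma adjusted p = 2.5e-12). The tetraspanins TSPAN8 and TSPAN1 rose 3.19-fold and 2.10-fold. PSCA, named after its values were seen, was counted as a rise although its libraries overlapped. It had 30.1 ± 4.67 in siTAZ and 19.3 ± 8.24 in siNT (limma adjusted p = 0.049). Over the 16 alternatives 5 to 7 genes of this list rose. The falls were in SPINK1, a trypsin inhibitor, at 11.2 ± 4.79 in siTAZ and 26.0 ± 8.96 in siNT, and in KLK1, a kallikrein protease, at 56.0 ± 16.3 in siTAZ and 110.5 ± 12.1 in siNT, both named after their values were seen. The libraries of SPINK1 overlapped, with 35 reads in siTAZ and 70 in siNT.

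The enzymes that build mucin-type O-glycans moved both ways. Of 26 tested, 12 rose, 7 fell and 7 missed the threshold, and the median log2 fold change was 0.05. The share called was 73.1%, against 55.8% of all genes tested, which were not matched for level. B3GNT3, which extends core O-glycans, rose 2.37-fold, to 2446 ± 155 in siTAZ, against 1033 ± 45.2 in siNT (limma adjusted p = 2.4e-11), and ST3GAL1, a sialyltransferase, rose 1.45-fold. GALNT6, one of the enzymes that start O-glycans, fell 2.30-fold, to 224 ± 28.1 in siTAZ, against 516 ± 12.5 in siNT, and GCNT2, a branching enzyme, fell 2.18-fold.

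Of 23 genes of granule exocytosis and of mucin shedding, 11 rose, 6 fell and 6 missed the threshold, and the median log2 fold change was 0.14. The share called was 73.9%, against 55.8% of all genes tested, which were not matched for level. With total count scaling 3 fell. RAB37, a secretory granule GTPase, had 2097 ± 14.8 in siTAZ and 737 ± 40.7 in siNT and rose 2.85-fold (limma adjusted p = 2.0e-12). STX3, an apical membrane SNARE, rose 1.85-fold, SYT7, a calcium sensor of exocytosis, rose 2.08-fold, and VAMP3, a SNARE of recycling endosomes, fell 1.76-fold.

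TFF1 and AGR2 are known oestrogen targets in breast cancer cells. Other genes linked to the oestrogen receptor, as targets or partner factors, were therefore counted. Of 13 tested, 11 rose and 2 fell, with a median log2 fold change of 0.67, where 28.3% of all genes tested rose and 27.5% fell. Over the 16 alternatives 11 to 13 were called and 9 to 11 rose. GREB1 and SCUBE2, rises named after their values were seen, were scarce, with 21 and 10 reads in siNT. XBP1, FOXA1 and GATA3 are also counted among the transcription factors, and KRT19 among the general epithelial markers. SERPINA1, the protease inhibitor alpha-1-antitrypsin, rose 12.3-fold, to 369 ± 62.4 in siTAZ, against 29.9 ± 2.36 in siNT (limma adjusted p = 2.9e-12). PDZK1, a scaffold of apical transporters, rose 4.86-fold, CA12, a membrane carbonic anhydrase, rose 2.02-fold and FOXA1, a pioneer transcription factor, rose 1.76-fold. The falls, named after their values were seen, were in IGFBP4, to 9678 ± 532 in siTAZ, against 15451 ± 875 in siNT, and in the cyclin gene CCND1, to 21972 ± 293 in siTAZ, against 28469.7 ± 576 in siNT. The receptor gene ESR1 was not analysed here.

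**Figure D4:**
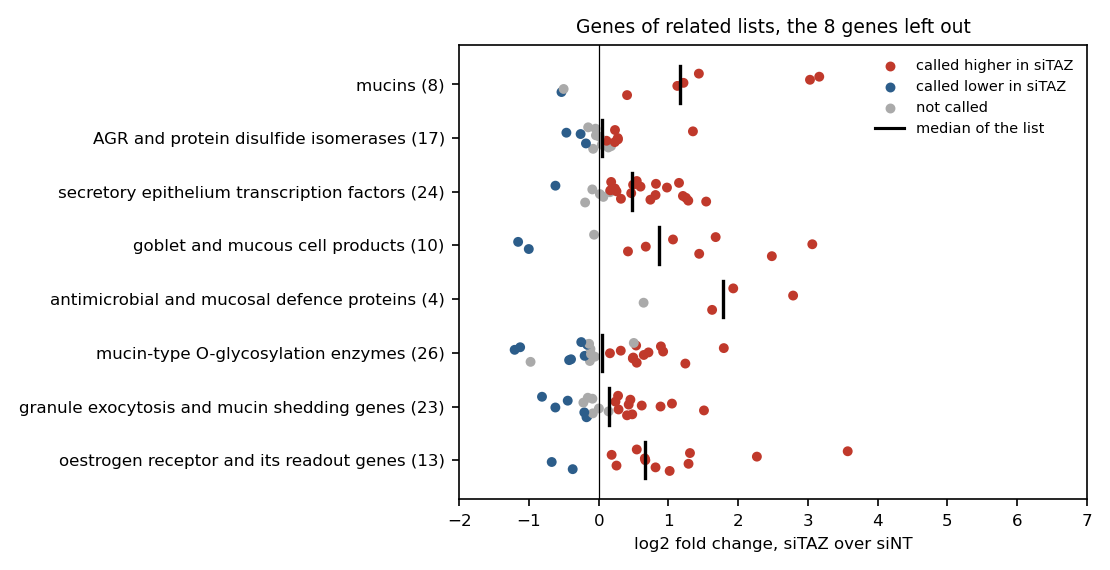
Log2 fold change, siTAZ over siNT (horizontal axis), of the genes tested in 8 related lists (rows, number tested in brackets), with the 8 described genes left out; red genes were called higher in siTAZ, blue lower and grey not called, and black lines are medians. The medians run from 0.04 for the list of protein disulfide isomerases to 1.78 for the 4 defence genes.

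Levels between genes were compared per kilobase of exon. In siTAZ the order of mean levels per kilobase was AGR2 at 9887 ± 165, TFF1 at 2810.1 ± 227, MUC13 at 1252 ± 24.2, TFF3 at 877 ± 63.4, TFF2 at 487 ± 18.6, SPDEF at 236 ± 11.2, LYZ at 72.0 ± 10.7 and MUC1 at 13.9 ± 1.27. In siNT it was AGR2 at 5486 ± 243, TFF1 at 1056 ± 134, MUC13 at 770.1 ± 9.48, TFF3 at 311 ± 20.3, TFF2 at 176 ± 9.93, MUC1 at 21.0 ± 1.09, SPDEF at 18.4 ± 4.89 and LYZ at 11.8 ± 1.09. The same 5 genes thus led in both groups, and MUC1 stood last in siTAZ. The libraries of neighbours in these orders did not overlap, except those of MUC1 and SPDEF in siNT. On the same scale AGR2 stood at percentile 99.7 of the table in siTAZ and 99.2 in siNT, and SPDEF at percentile 66.4 in siTAZ and 25.6 in siNT.

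The replicate spread was set beside what counting alone gives. For MUC1 the coefficient of variation was 9.12% in siTAZ and 5.19% in siNT, where counting alone gives 11.9% and 10.6%. For SPDEF it was 4.72% in siTAZ and 26.6% in siNT, where counting alone gives 4.54% and 17.7%. For TFF1 it was 8.07% in siTAZ and 12.7% in siNT, where counting alone gives 2.46% and 4.36%. For TFF3 it was 7.23% in siTAZ and 6.52% in siNT, where counting alone gives 3.02% and 5.52%, and for AGR2 1.67% in siTAZ and 4.44% in siNT, where counting alone gives 0.575% and 0.840%.

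The genes most like each of the 8 were found by the root mean square distance between log2 values in the 6 libraries, each gene centred on its siNT mean, among 11667 named genes with a mean of at least 50. The nearest to TFF3 was BTG2, an antiproliferative gene, at 0.04 log2 units, then SLC37A1, the neighbour of the trefoil cluster, at 0.06 and CDX2 at 0.07. NKD2, a Wnt inhibitor, was nearest to TFF1 at 0.06, and BMP8B, a BMP ligand, nearest to TFF2 at 0.05. AGR2 was matched most closely by LXN at 0.03, MUC13 by LRRC1 at 0.02 and MUC1 by ZNF428 at 0.02. LYZ was nearest to KIF12, a kinesin gene, at 0.10 and to USH1C, a scaffold of the brush border, at 0.13, while SPDEF had no gene nearer than RFLNA at 0.23. The distance uses the same contrast as the choice of genes, so it is a description only.

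Promoter sequence was matched for 4 of the 8 genes. The 250 bases before the RefSeq start (GRCh38.p14) are printed 5′ to 3′ on the gene's strand for AGR2, MUC13 and SPDEF, which were all higher in siTAZ, and for 1 of 2 start sites of MUC1, which was lower, so that they can be set side by side. Capitals mark matches to the letters searched.

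AGR2, chr7:16805000-16805249, minus strand: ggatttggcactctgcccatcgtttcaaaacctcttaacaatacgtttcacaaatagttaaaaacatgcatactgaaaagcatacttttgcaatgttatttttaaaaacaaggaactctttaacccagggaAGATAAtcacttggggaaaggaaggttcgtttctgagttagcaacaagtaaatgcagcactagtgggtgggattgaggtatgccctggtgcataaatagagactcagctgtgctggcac

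MUC13, chr3:124934752-124935001, minus strand: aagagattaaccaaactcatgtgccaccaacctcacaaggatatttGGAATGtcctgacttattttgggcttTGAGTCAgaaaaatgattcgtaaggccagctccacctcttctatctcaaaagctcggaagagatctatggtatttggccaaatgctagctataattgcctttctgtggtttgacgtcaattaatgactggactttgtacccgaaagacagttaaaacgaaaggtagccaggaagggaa

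SPDEF, chr6:34556330-34556579, minus strand: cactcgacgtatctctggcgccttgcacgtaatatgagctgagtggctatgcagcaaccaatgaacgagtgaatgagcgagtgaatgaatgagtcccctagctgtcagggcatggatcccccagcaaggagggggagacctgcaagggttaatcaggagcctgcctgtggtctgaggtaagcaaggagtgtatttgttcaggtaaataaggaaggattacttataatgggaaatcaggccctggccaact

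MUC1, chr1:155192916-155193165, minus strand: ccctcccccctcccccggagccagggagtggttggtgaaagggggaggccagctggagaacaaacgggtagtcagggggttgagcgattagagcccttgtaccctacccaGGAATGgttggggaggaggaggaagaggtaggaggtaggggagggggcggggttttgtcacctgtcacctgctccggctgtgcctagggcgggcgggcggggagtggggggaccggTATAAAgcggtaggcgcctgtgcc

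The letters searched on both strands were GGAATG for TEAD factors, TGANTCA for AP-1, TGTTTAC for FOXA factors, AGATAA for GATA factors, TATAAA for the basal promoter box and TGACGTG for XBP1. The letters GGAATG lie 204 to 199 bases before the start of MUC13 and 140 to 135 bases before that of MUC1, so a gene that was higher and the gene that was lower both hold them. They occur in 11.9% of all 34788 promoter sequences of the same length. MUC13 also holds TGAGTCA, 178 to 172 bases before the start (TGANTCA is in 6.59% of all), AGR2 holds AGATAA (9.21% of all) and MUC1 holds TATAAA (10.8% of all). The SPDEF stretch holds none of the letters searched, and TGTTTAC (2.98% of all) and TGACGTG (1.68% of all) were in none of the 4. GC content was 40.4% for AGR2, 41.6% for MUC13, 50.8% for SPDEF and 66% for MUC1, with a median of 58% over all. A match is not a bound site, and the part of these letters in the differences was not tested.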

How the data were processed

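RNA-seq was made from poly(A) RNA of 6 samples, 3 siTAZ and 3 siNT, grouped by their titles. FastQC, HISAT2, HTSeq, DESeq2 and hg19 are named in the submitters' processing notes; no source used here gives versions, annotation, strand setting or gene filter. The deposited values are a signal, reads divided by 1 size factor per library: 100% were whole multiples of a library step within 0.001 of a read, which gave back the reads, 25478595 to 34488196 per library.

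Names came from an Ensembl table (16662 genes) and GENCODE release 29 (81), and 468 stayed unnamed. Limma 3.58.1 (R 4.3.3, intensity trend) was run on log2 values with a pseudocount of 1, over 17204 genes whose mean reached 1, with group as the only term, with Benjamini-Hochberg adjustment over all genes and a threshold of 0.05. Fold changes on that scale understate the change of low genes; folds are of mean deposited values. The alternatives included edgeR 4.0.16, DESeq2 1.42.0 and voom on the recovered reads. Each tool was tested on simulated data in which far fewer genes changed than here, none of them low. That run cannot show how the tools do with changes as wide as these. Exon lengths are merged GENCODE exons. The RefSeq gene table (GRCh38.p14) gave gene order only, and promoters are RefSeq's.

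The genes and lists were chosen with earlier results of these data known. Named genes are the 8, WWTR1, YAP1, up to 4 called genes per list by adjusted p, all listed mucins, 5 neighbours on each side of the trefoil cluster and 3 nearest profiles per gene, of which some are not printed. Others are marked as named later. The coefficients given as from counting cover counting error alone and treat reads as independent molecules, which they are not. Python 3.11.15, pandas 2.3.3, numpy 2.4.6 and matplotlib 3.10.9 were used.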

Additional observations from a re-analysis of the deposited data

How the results depend on the processing

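The 16 alternatives were 2 other pseudocounts, 2 other filters, 3 count tests, 2 other scalings, the replicate block and leaving out each library. Under all of them the log2 fold changes of the 8 genes kept their sign: 1.33 to 1.51 for TFF1, 1.41 to 1.52 for TFF2, 1.43 to 1.55 for TFF3, 0.81 to 0.90 for AGR2, 0.69 to 0.75 for MUC13, 3.37 to 3.88 for SPDEF, 2.14 to 2.65 for LYZ and -0.66 to -0.52 for MUC1. SPDEF (3.37) and LYZ (2.14) were lowest with a pseudocount of 10, and AGR2 (0.90) and MUC13 (0.75) were highest with total count scaling, which moved the median of all genes by 0.05.

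Genes called numbered 8540 to 9674 over the alternatives, against 9604. The total called in each list stayed within 1.5 times of that given, except that 1 defence gene was called with the filter of 1 CPM in 3 libraries, where fewer genes were tested. Libraries with the same replicate number correlated at -0.08, -0.02 and 0.01 in their deviations from the group means. Differently numbered ones correlated at -0.05 to 0.07. With 3 libraries per group these values cannot say whether the libraries were paired. With the number as a replicate block 8701 genes were called. These replicate numbers come from the titles, while the sample descriptions carry other numbers, none of them shared by the groups. Depth limits MUC1 and, in siNT, SPDEF and LYZ. It also limits other low genes with large folds, whose siNT values rest on few reads over 3 libraries: 81 for SERPINA1, 52 for MUC5AC, 46 for REG4, 43 for MUC5B, 10 for DUOX2, 10 for RSPH1, 7 for MSLN, 4 for MUC6 and 3 for DUOXA2.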
